A study of Mus musculus with 12 samples.

Results

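Rad51c was examined together with the genes that act beside it in homologous recombination, in E14, a line of mouse embryonic stem cells. The members were given as 8 symbols, Rad51c, Rad51b, Rad51d, Xrcc2, Xrcc3, Brca1, Brca2 and Palb2, of 22180 named genes tested in the series. Rad51c was chosen by its measured signal, which was lower with LOXL2 knockdown in these same arrays, and the other 7 were added for their known function. The values of Rad51c in the knockdown comparisons are therefore given as a description, without a test. On this array 7 of the 8 members were measured, each by 1 transcript cluster (a group of probes over 1 gene) annotated to that gene alone. Xrcc2 was not analysed here. There was no filter on low signals, so all 7 entered every comparison.

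Cells had been transduced with a control construct (shCT) or with one that knocks down LOXL2, an enzyme of the lysyl oxidase family, by RNA interference (shLOXL2). Both were profiled at day 0 with no RA (retinoic acid) and at day 1 with it, in 4 groups of 3 arrays. Without an untreated group at day 1, RA and a day of culture cannot be told apart. Whether replicates were separate cultures, and how many hairpins or clones were used, is not in the labels. The p-values therefore reflect how much these arrays varied, which may be technical variation alone.

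Homologous recombination repairs broken or stalled DNA by copying an intact sister sequence. Brca1 promotes the trimming of broken ends, Palb2 bridges Brca1 and Brca2, and Brca2 acts on the exposed single strand before it invades the sister copy. Rad51b, Rad51c, Rad51d and Xrcc2 form one complex, and Rad51c also pairs with Xrcc3 in another, so Rad51c is the subunit that both complexes share. Embryonic stem cells divide fast with a short first gap phase and rely heavily on this pathway.

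The promoter sequences of Rad51c are shown because the gene lies head to head with Tex14, a germ cell gene of intercellular bridges, whose signal is compared with that of Rad51c further on. That of Brca2 is shown because it was the other member with the same pair of motifs. They are RefSeq windows of build GRCm38.p6, 250 bases before to 50 after an annotated start, and the array's own build is not given in the sources used here. The RefSeq table held windows for 6 of the 8 members. Capitals mark the letters of an E2F core (TTTCCCG, with its variants TTTCGCG, then also TTTGCCG and finally TTTGGCG) or of a cyclic AMP response element (TGACGTCA), on either strand.
Rad51c, inner start, chr11:87404457-87404756, minus strand: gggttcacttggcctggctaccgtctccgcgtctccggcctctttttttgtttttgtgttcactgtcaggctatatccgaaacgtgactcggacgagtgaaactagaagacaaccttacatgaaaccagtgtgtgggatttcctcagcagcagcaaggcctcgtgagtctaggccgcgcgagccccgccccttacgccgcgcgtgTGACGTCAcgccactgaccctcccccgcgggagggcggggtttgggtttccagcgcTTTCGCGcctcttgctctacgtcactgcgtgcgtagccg
Rad51c, outer start, chr11:87404905-87405204, minus strand: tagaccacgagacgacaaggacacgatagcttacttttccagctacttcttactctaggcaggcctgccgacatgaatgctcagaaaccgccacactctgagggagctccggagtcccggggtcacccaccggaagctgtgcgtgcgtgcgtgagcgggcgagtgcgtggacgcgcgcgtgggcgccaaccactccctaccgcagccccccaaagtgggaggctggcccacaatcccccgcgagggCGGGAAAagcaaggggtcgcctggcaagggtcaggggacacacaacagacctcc
Brca2, chr5:150522371-150522670, plus strand: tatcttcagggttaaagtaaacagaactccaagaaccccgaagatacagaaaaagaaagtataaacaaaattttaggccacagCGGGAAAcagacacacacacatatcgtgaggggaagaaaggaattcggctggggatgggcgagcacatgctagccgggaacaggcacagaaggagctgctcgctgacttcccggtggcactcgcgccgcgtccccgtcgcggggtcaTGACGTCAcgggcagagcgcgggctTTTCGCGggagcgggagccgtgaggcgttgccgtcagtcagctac
The E2F core beside the outer Rad51c start also lies in the RefSeq window of Tex14. The outer start of Rad51c and the Tex14 start behind its window lie 111 bases apart on opposite strands. The RefSeq gene span of Tex14 begins nearer to Rad51c, at 87405013 rather than 87405065. With either start, 1 stretch of sequence precedes both genes. E2F proteins drive many genes of the S phase, and the E2F core letters were in windows of 3 of the 6 members, Rad51c, Rad51b and Brca2, against 6.70% of all 32851 windows. The cyclic AMP response element was in the inner Rad51c window and in that of Brca2, against 1.79% of all windows. The CCAAT box (CCAAT, either strand) was in windows of Rad51b, Xrcc3, Brca1 and Palb2, against 37.4% of all windows. Members are counted here as genes, with 8 windows for the 6, while the percentages are of windows, so they are not like for like. Both windows of Rad51b overlap and hold the same E2F core. These motifs share no letters in the windows printed.

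As a check of the arrays, their median log2 signals ran from 4.58 to 4.68, and the correlation between arrays, across clusters, from 0.939 to 0.985. Both clusters of the targeted gene Loxl2 are also annotated to Gm21451. With RA, shLOXL2 arrays read 5.11 to 5.30 against 5.85 to 6.51 in shCT in the first of them, and 4.64 to 5.06 against 5.60 to 6.27 in the second. Without RA the groups read 4.79 to 5.07 against 5.17 to 5.71 in the first, and overlapped in the second. All 12 embryonic stem cell markers lay above the array medians in every group, while 3 or 4 of 7 feeder fibroblast markers did (summed log2 signals of 27.9 to 31.4 over all arrays). All 5 measured markers of the retinoic acid response rose with RA. Within groups the arrays also differed along 1 axis, the first principal component of deviations from the group means, which held 49.4% of their variance. Replicate 3 of both shCT groups and replicate 1 of both shLOXL2 groups scored 0.935 to 1.51 on it, and the other 8 arrays -1.74 to 0.235. The members' knockdown differences on average are also given without these 4 arrays where that turned their sign or moved them by over 1.5 times.

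Rad51c was lower in shLOXL2 than in shCT cells by the same amount in both RA states. In shCT cells without RA its log2 signal was 6.52, 6.50 and 6.76 in replicates 1, 2 and 3, and in shLOXL2 cells it was 6.04, 5.82 and 5.62. With RA it was 6.72, 6.69 and 6.85 in shCT cells, against 6.12, 5.86 and 5.97 in shLOXL2 cells. Every shLOXL2 array lay below every shCT array in either state, as for 4.04% of all genes without RA and 5.88% with RA. Such a pattern, lower and without overlap in both states, was found in 151 of 22180 genes (0.681%), and Rad51c was chosen for it. The difference was -0.77 ± 0.14 (SE, log2, n = 3 arrays per group) in either state, which put the shLOXL2 signal at 58.8% of control without RA and 58.6% with RA. With any 1 array left out, the average over both states lay between -0.82 and -0.72.

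**Figure D1:**
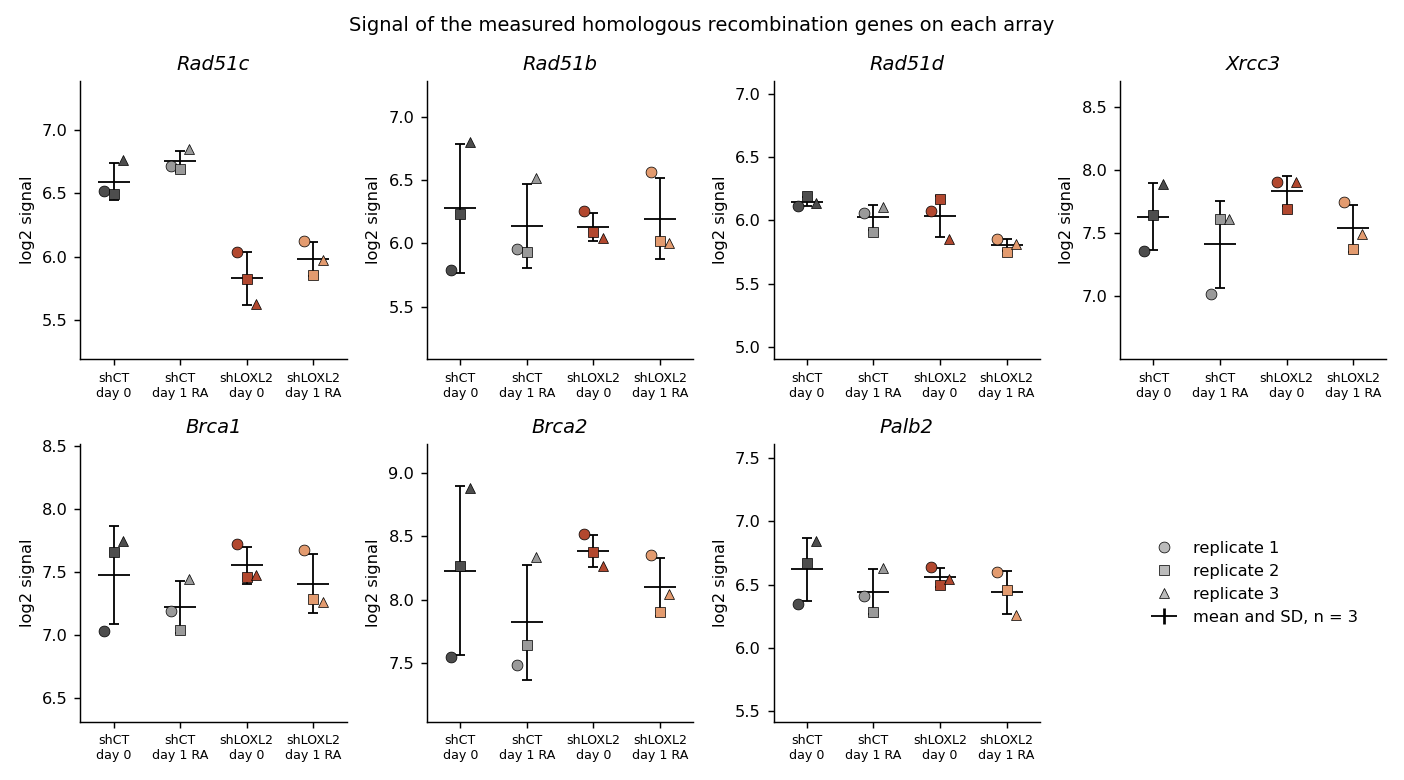
Log2 signal of the 7 measured members on the 12 arrays, by group on the horizontal axis, with the mean and SD (n = 3); every panel spans the same number of log2 units. The 6 Rad51c values in shLOXL2 cells, 5.62 to 6.12, lie below the 6 in shCT cells, 6.50 to 6.85, while the other members overlap between constructs in at least 1 RA state.

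The RA response of Rad51c was not used to choose it and was tested. RA moved its signal by 0.16 ± 0.14 in each construct, from a mean of 6.59 ± 0.146 (SD, n = 3) to 6.75 ± 0.083 in shCT cells and from 5.83 ± 0.207 to 5.98 ± 0.133 in shLOXL2 cells. Averaged over constructs the change was 0.16, with a 95% interval of -0.05 to 0.37 (limma adjusted p = 0.389, exact two-sided p of the permutation test over RA labels = 0.09). The RA responses of both constructs differed by -0.00 (95% interval -0.42 to 0.41, limma adjusted p = 1). No gene of 22180 passed the threshold for that difference, and 652 (2.94%) had an unadjusted p under 0.05.

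Its partners in these 2 complexes were next, starting with Rad51d, which links Rad51c to Xrcc2. Rad51d read 6.12, 6.19 and 6.14 in shCT cells without RA and 6.06, 5.91 and 6.10 with RA. In shLOXL2 cells it read 6.07, 6.17 and 5.86 without RA and 5.85, 5.75 and 5.82 with RA. Constructs overlapped without RA and were separate with RA, shLOXL2 being lower, as for 5.88% of all genes. Averaged over RA states the knockdown difference was -0.17 (95% interval -0.35 to 0.01). It passed the exact permutation test of the single value (two-sided p = 0.015) but not the limma fit across all genes (adjusted p = 0.775). Its RA changes were as small, -0.13 in shCT and -0.23 in shLOXL2 cells, and the arrays with RA lay below those without RA in both constructs. That held for 10.5% of all genes in shCT cells, 9.32% in shLOXL2 cells and 4.33% in both. The average RA change, -0.18 (95% interval -0.36 to 0.00), had the smallest exact two-sided p that the 400 relabellings allow, 0.005, and a limma adjusted p of 0.236. The exact tests were 13 in all, 7 for RA and 6 for knockdown, and their p-values are unadjusted. They treated the arrays as unpaired. For RA, pairing by replicate number within a construct would allow fewer relabellings, so the smallest possible p would be larger. The same limit holds for knockdown. If arrays of the same number within a construct shared a culture, construct labels would have to move by culture. The p of 0.015 therefore takes all arrays as independent, which the labels do not settle. Rad51d had the smallest spread of the members, an SD within groups of 0.10 over all 4 groups.

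Rad51b, which contacts Rad51c directly in the larger complex, varied more between arrays of a group than between groups. It read 5.79, 6.24 and 6.81 in shCT cells without RA, and 5.96, 5.93 and 6.52 with RA. In shLOXL2 cells it read 6.26, 6.09 and 6.04 without RA, and 6.57, 6.02 and 6.004 with RA. All 4 groups overlapped, and the largest gap lay within the shCT group without RA. The knockdown difference on average was -0.04 (95% interval -0.41 to 0.32, limma adjusted p = 0.991). Without the 4 arrays high on the axis it was 0.06, so its sign was not settled.

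Xrcc3, the partner of Rad51c in the smaller complex, was not lower with knockdown. In shCT cells it read 7.36, 7.64 and 7.89 without RA and 7.01, 7.61 and 7.61 with RA, and in shLOXL2 cells 7.90, 7.69 and 7.90 without RA and 7.74, 7.37 and 7.49 with RA. The constructs overlapped in both states, with a difference on average of 0.16 (95% interval -0.12 to 0.44, limma adjusted p = 0.9). RA moved it by -0.26 on average (95% interval -0.54 to 0.02, limma adjusted p = 0.273).

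Among the mediators, Brca2 had the widest spread of the members, an SD within groups of 0.43. It read 7.54, 8.26 and 8.88 in shCT cells without RA and 7.48, 7.64 and 8.34 with RA. In shLOXL2 cells it read 8.52, 8.37 and 8.26 without RA and 8.35, 7.90 and 8.04 with RA. Constructs overlapped in both states, and the knockdown difference on average was 0.22 (95% interval -0.22 to 0.66, limma adjusted p = 0.924). Without the 4 arrays high on the axis it was 0.41 (95% interval 0.07 to 0.76, limma adjusted p = 0.362). Those arrays hold the highest Brca2 value of each group, so leaving them out narrows its spread. That interval is therefore no independent check. The RA change on average was -0.35 (95% interval -0.78 to 0.09, limma adjusted p = 0.356). With numbers paired within each construct, a setting added once the data had been seen, the same change passed with a limma adjusted p of 0.0314, and with the axis as a covariate with 0.0334. Those settings called 16.6% and 20.7% of all genes.

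Brca1 and Palb2, which recruit Brca2, followed the same arrays. Brca1 read 7.03, 7.65 and 7.74 in shCT cells without RA, 7.19, 7.04 and 7.44 with RA, and in shLOXL2 cells 7.72, 7.46 and 7.48, then 7.67, 7.29 and 7.26. Palb2 read 6.35, 6.67 and 6.84 in shCT cells without RA, 6.41, 6.28 and 6.63 with RA, and in shLOXL2 cells 6.64, 6.49 and 6.54, then 6.60, 6.46 and 6.26. For both genes every pair of groups compared overlapped. The knockdown difference on average was 0.13 for Brca1 (95% interval -0.16 to 0.42, limma adjusted p = 0.946) and -0.03 for Palb2 (-0.26 to 0.20, limma adjusted p = 0.988). Without the 4 arrays high on the axis that of Palb2 was 0.01, so its sign was not settled. With RA they moved by -0.20 (limma adjusted p = 0.446) and -0.15 (limma adjusted p = 0.466).

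Set side by side, none of the 6 measured partners passed the limma threshold (adjusted p under 0.05) with knockdown, on average or in either RA state. On average 12 of 22180 genes passed (0.0541%), 8 higher (0.0361%) and 4 lower (0.0180%), at 6.72% with an unadjusted p under 0.05. That count was not stable, and ran from 0 to 19 with 1 array left out. Within either RA state 0 genes passed, with 1037 (4.68%) and 1100 (4.96%) at an unadjusted p under 0.05. The partners' differences on average ran from -0.17 for Rad51d to 0.22 for Brca2, and 3 of 6 were above 0, or 5 of 6 without the 4 arrays high on the axis. The lowest bound of their 95% intervals on average was -0.41, that of Rad51b, so a fall of the size seen for Rad51c (-0.77) lay outside all 6. Within an RA state the lowest bound was -0.67, that of Rad51b without RA. The intervals on average do reach falls of 0.20 or more for Rad51b, Rad51d, Brca2 and Palb2, so smaller falls were not detectable at this number of arrays. No member passed for RA either, in shCT cells (4.25% of all genes passed), in shLOXL2 cells (3.46%) or on average (10.3%). The median RA change of the 7 members was -0.18, beside -0.01 over all genes, and 6 of 7 were below 0. In lists read further on, 19 of 22 replication and S phase genes and 13 of 17 Fanconi anaemia genes were below 0 too. In the BRCA1 complexes it was 3 of 8 and in end resection 4 of 10. Members that vary together between arrays are not independent readings.

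**Figure D2:**
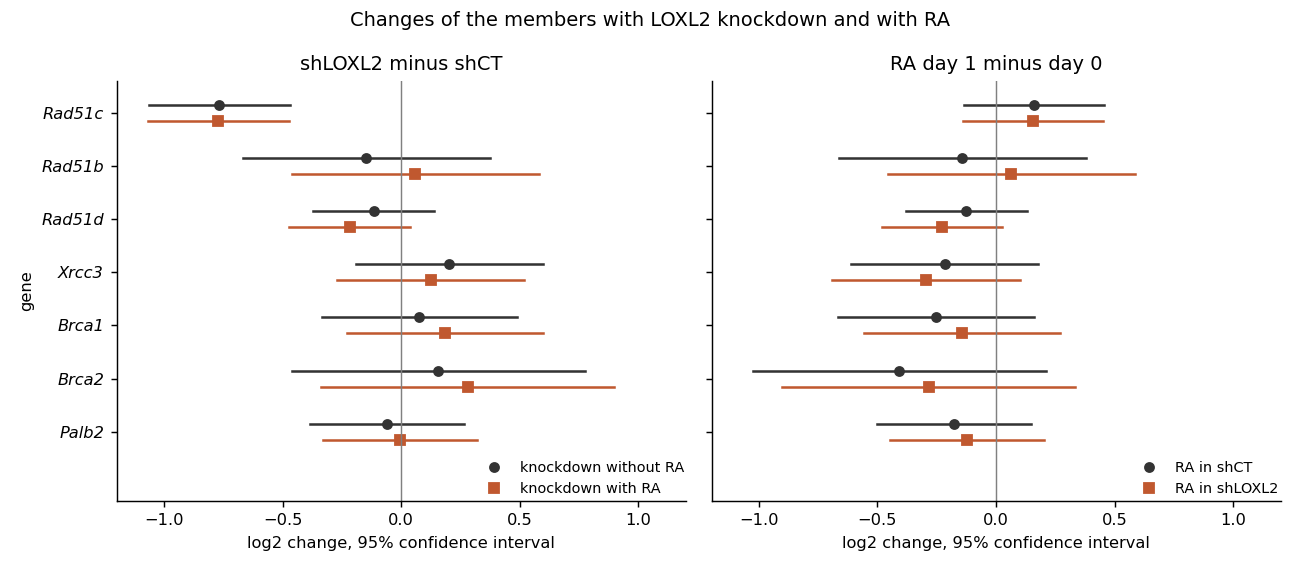
Log2 change (horizontal axis) of each measured member with its 95% confidence interval from the limma fit, for knockdown in each RA state (left) and RA in each construct (right). Rad51c stands at -0.77 in both knockdown comparisons, while the intervals of all other members include 0 in both panels.

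Of the 7 members 5 followed the axis within groups, and Rad51d and Xrcc3 did so in 2 of 4 groups. Rad51c, Rad51b, Brca1, Brca2 and Palb2 had their highest value of each group on the array high on the axis, in all 4 groups, which 11.0% of all genes did. The 4 arrays high on the axis lay above the other 8, after group means were taken off, by 0.58 for Brca2, 0.53 for Rad51b and 0.35 for Brca1. The gap was 0.27 for Xrcc3, 0.25 for Palb2, 0.23 for Rad51c and 0.06 for Rad51d. Brca2 and Rad51b stood at the percentiles 96.5 and 95.5 of all genes on this measure, and Rad51d at 70.1. The number of high arrays was the same in each group, and without them the Rad51c difference on average was -0.79. What sets these arrays apart is not given in the labels, and its part in the members' spread was not tested.

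**Figure D3:**
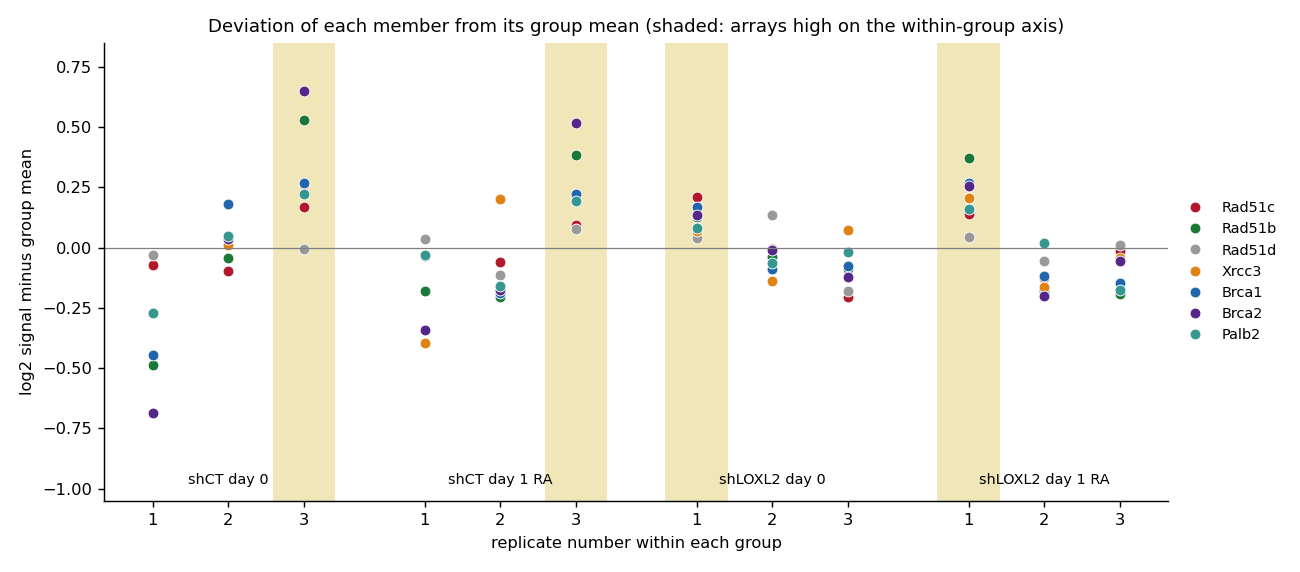
Log2 signal of each measured member minus its group mean (vertical axis), by replicate number within the 4 groups; shaded arrays are the 4 high on the within-group axis. Brca2 and Rad51b show the widest range, with Brca2 at 0.65 above its group mean on replicate 3 of shCT without RA, and Rad51d the narrowest.

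The wider pathway was read from 7 lists of repair genes outside the members, with 97 measured genes of 107 listed. With knockdown on average none of the 97 passed the limma threshold, and their changes ran from -0.32 to 0.26 with a median of 0.04, beside 0.00 for all genes. The smallest p belonged to Fignl1, an ATPase gene of recombination, at -0.32 ± 0.11 (limma adjusted p = 0.511). With array weights, which favour replicate arrays of low spread, 6 of the 97 passed, beside 4.52% of all genes. By sign, in the fit reported, 44 genes were above 0 and 53 below without RA, and 72 above and 25 below with RA. All genes had a median of 0.01 in either state. With 1 array left out, the median of the 97 ran from -0.08 to 0.05 without RA. With RA it ran from 0.06 to 0.13. None of the 97 passed for the difference in knockdown change between RA states. Among 17 measured genes of the recombination mediator list 11 were above 0 and 6 below on average, but 6 and 11 without RA, and 14 and 3 with RA. Among 17 Fanconi anaemia genes, which act with the members at DNA crosslinks, 10 were above and 7 below on average. The 22 genes of replication and S phase and the 19 of G2 and mitosis had medians of 0.04 and 0.03 with knockdown, and none passed.

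With RA on average 10 of the 97 repair genes passed the limma threshold, 2 upward and 8 downward. Of all genes 10.3% passed, 5.52% upward and 4.80% downward, so the total share is near the background. Rpa1, the large subunit of the protein that coats single-stranded DNA, rose by 0.80 ± 0.09 (limma adjusted p = 7.73e-05), and its groups did not overlap. It read 8.96 to 9.21 in shCT cells without RA against 9.76 to 10.08 with RA, and 8.99 to 9.33 against 9.94 to 9.99 in shLOXL2 cells. Damage signalling held 6 of the calls, 5 of them downward. The checkpoint kinase gene Chek2 fell by 0.57 ± 0.08 (limma adjusted p = 0.000557) and Trp53bp1, whose protein shields broken ends from resection, fell by 0.56 ± 0.09 (limma adjusted p = 0.000913). Rad9a and Rad1, subunits of a checkpoint clamp, fell by 0.46 ± 0.10 and 0.60 ± 0.14. Rnf8, a ubiquitin ligase at breaks, rose by 0.31 ± 0.08 and is named after its value was seen; its call ended under 7 of 24 alternatives. Single genes fell in 3 other lists, namely Faap24 of the Fanconi core (-0.57 ± 0.13), the helicase gene Recql5 (-0.38 ± 0.10) and Parp1, a sensor of DNA breaks (-0.35 ± 0.10). Of 24 alternatives, 13 ended the call of Parp1, 3 that of Recql5 and 1 that of Rad1. No gene of the recombination mediator list or of the BRCA1 complexes passed, with the smallest p for Rad54l (-0.24 ± 0.09, limma adjusted p = 0.133) and Bard1, the partner of Brca1 (-0.26 ± 0.10, limma adjusted p = 0.123). Embryonic stem cell markers moved with RA as well, 7 of 12 downward, with summed log2 signals of 107.3 to 109.7 without RA and 102.9 to 104.3 with RA over all arrays. Of other cell type markers 2 of 4 neural, 2 of 5 germ cell and meiosis and 1 of 7 endoderm genes rose, and none fell. Their summed log2 signals without and with RA ran from 19.9 to 21.2 and 21.2 to 23.6 (neural), 29.7 to 34.0 and 33.0 to 37.0 (germ cell and meiosis), and 36.5 to 41.8 and 38.3 to 43.0 (endoderm). Of the replication and S phase genes 1 of 22 passed, Chaf1b, downward (-0.42 ± 0.12), a call that 13 of 24 alternatives ended, and of G2 and mitosis genes none of 19. The part of these shifts in the repair genes was not tested. In shLOXL2 cells alone 2 repair genes passed with RA, and 6 with arrays paired by number, where 7.32% of all genes passed. The count on average was 6 without replicate 3 of shCT with RA, where 7.9% of all genes passed.

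**Figure D4:**
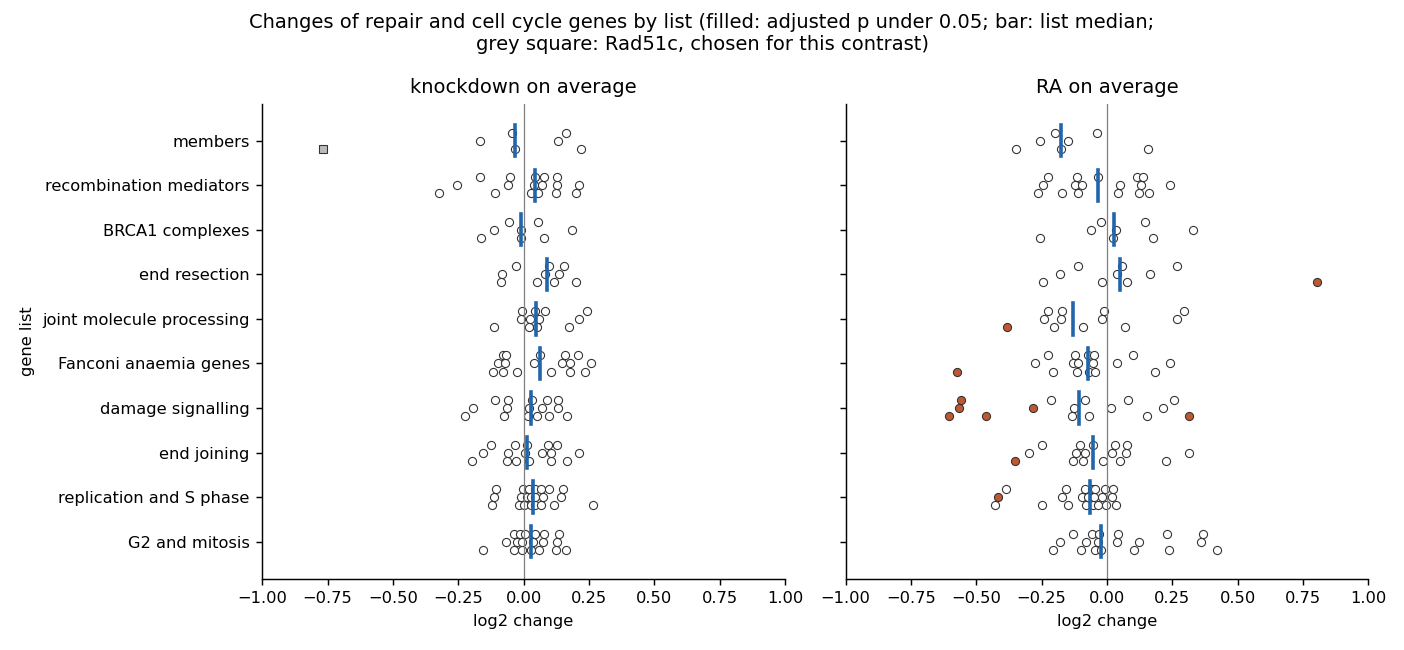
Log2 change of each measured gene (points) with knockdown on average (left) and RA on average (right), by gene list on the vertical axis; filled circles passed the limma threshold and blue bars are list medians. On the left only Rad51c, the grey square at -0.77, lies beyond -0.5. On the right Rpa1 stands at 0.80, and 10 of 16 damage signalling genes lie below 0, of which 5 passed.

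The chromosomal neighbours of Rad51c were compared next. Tex14, on the opposite strand, read 6.84, 6.91 and 7.48 in shCT cells without RA and 6.67, 7.02 and 6.82 in shLOXL2 cells. With RA it read 7.11, 7.07 and 7.63 against 7.14, 7.11 and 7.39, so the constructs overlapped in both states. Its knockdown difference on average was -0.15 (95% interval -0.44 to 0.15, limma adjusted p = 0.922). On the other side, Ppm1e, a phosphatase gene, differed by -0.06 (95% interval -0.33 to 0.21) and Trim37, a ubiquitin ligase gene, by 0.16 (95% interval -0.06 to 0.39). None of these 3 passed (limma adjusted p = 0.981 for Ppm1e and 0.842 for Trim37), and none of their intervals reached -0.77. Without the 4 arrays high on the axis the difference of Trim37 grew. Those of Tex14 and Ppm1e changed sign, so their signs were not settled.

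The genes whose pattern over the 12 arrays was most like that of Rad51c were ranked by the root mean square difference of log2 values after each gene's own mean was taken off. The nearest were Fam162a (0.145 log2 units), Tbc1d5 (0.151), Pak2 (0.166), Acot13 (0.173), Nap1l1 (0.185) and Rab28 (0.191), beside a median of 0.467 over all genes compared. Tbc1d5 and Rab28 belong to membrane traffic, Pak2 is a kinase, Acot13 a thioesterase and Nap1l1 a histone chaperone. All 6 were lower in shLOXL2 cells on average, by 0.47 to 0.77 log2 units, which the choice of a like pattern fixes. Among the members Rad51d came nearest, at 0.36 (rank 909), and Brca2 stood farthest, at 0.62. A gene with the same signal on all arrays would score 0.41, so 0.36 is little nearer than no pattern.

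**Figure D5:**
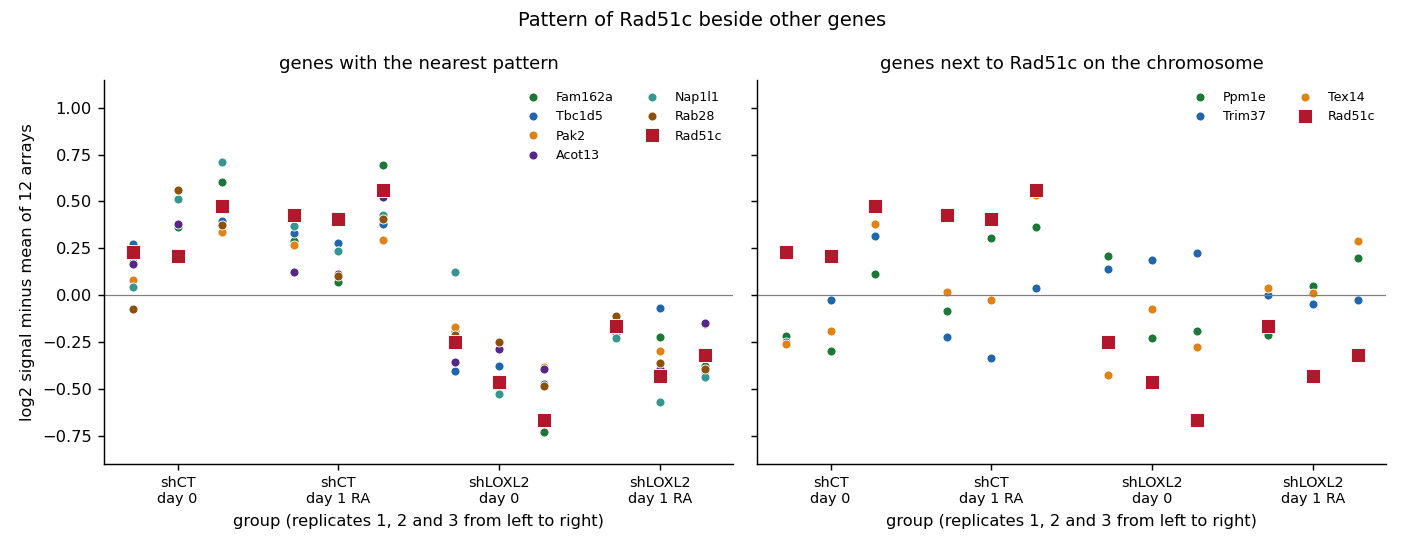
Log2 signal minus the mean of the 12 arrays (vertical axis) for Rad51c (red squares) beside the 6 genes of nearest pattern (left) and its measured chromosomal neighbours (right), by group with replicates from left to right. The genes on the left share the step between constructs because they were picked for likeness, and the neighbours on the right show no such step.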

How the data were processed

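The authors deposited log2 signals, with a row for each transcript cluster and a column for each array, from Affymetrix whole-transcript arrays (100 ng of total RNA per sample, per the labels' protocols). The submitters' processing notes name RMA, limma and R 3.1.1 with no role or order. The build and annotation are not given in the sources used here, and normalization between arrays removes shifts common to most genes.

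Of 41345 clusters, 23521 had 1 gene in the platform annotation, 1814 several and 16010 none, and 23328 of the first were matched to RefSeq symbols. The brightest cluster stood for a gene, which gave 22180 genes. Limma 3.58.1 in R 4.3.3 (statmod 1.5.0) was fitted over all 12 arrays with 1 mean per group, and p-values were adjusted over all genes (Benjamini-Hochberg, threshold 0.05). The fit was run on simulated data with independent noise for each gene and array. That check does not cover the axis within groups or a correlation between arrays of the same number. The precision is limited by the 3 arrays per group. Members and lists were chosen with earlier results of these data known. Named genes were the members, Loxl2, the 2 named genes on each side of Rad51c (Rnu1a1 was not analysed here), its 6 nearest patterns among genes without predicted, numbered, small RNA or receptor family symbols, and up to 4 called genes per list, or the smallest p where none passed. Arrays of the same number were checked for pairing by the correlation of their deviations from group means. It was 0.216 to 0.558 within shLOXL2, 0.039 to 0.631 within shCT and -0.55 to 0.197 between constructs. The ranges within constructs overlap, so they do not show a pairing in 1 construct alone. The fit reported used no pairing in any comparison, so its p-values for RA and for knockdown leave out any that was present. Fits with arrays paired by number are among the alternatives. The other ways of processing are given in the closing section. The blocks, the axis as a covariate, a variance trend and the choice of clusters cannot alter a member's change, only its p-value. The same holds for leaving out dim genes and for fitting only the groups compared. Leaving out an array alters the changes only in comparisons that use its group. A gene that the rule for named genes also covers is not reported here.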

Additional observations from a re-analysis of the deposited data

How the results depend on the processing

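The Rad51c difference on average ran from -0.82 to -0.72 over 23 alternatives, some of which could alter only p-values. Within RA states it ran from -0.87 to -0.66. No partner passed with knockdown under any alternative. For RA, array weights called 2 members in shCT cells (Brca1, Brca2) and 3 on average (Rad51d, Brca1, Brca2), where they called 23.6% and 26.9% of all genes. The axis as a covariate and the fixed block for construct and number, the one alternative chosen after seeing the data, each called 1 on average, Brca2, with 20.7% and 16.6% of all genes called. Of 1183 recomputed member changes, many fixed in size by design, 1121 kept direction and side of the threshold. Another 7 came to pass, and 55 that passed nowhere changed sign, none beyond 0.201.

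Counts among the 97 repair genes moved more, and so did the share of all genes called, given in percent after some of them. For RA in shCT, 5 genes became 3 with the replicate block over all arrays, a second quantile normalization, all transcript clusters or without the 4 arrays high on the axis, 1 with only the groups compared, 8 with a random block (9.23%), 9 with the axis (11.2%) and 23 with array weights (23.6%), from 4.25% in the fit reported. For RA in shLOXL2, 2 became 1 with only the groups compared or the mean of a gene's clusters, 4 without dim genes (7.70%), 5 with the random block (7.55%), 6 with the fixed block (7.32%), 8 with weights (12.0%) and 12 with the axis (9.97%), from 3.46%. For RA on average, 10 became 19 with the random block (17.5%), 23 with weights (26.9%) and 24 with the axis (20.7%), from 10.3%. For knockdown, weights gave 10 genes without RA (13.0%) and 6 on average (4.52%). Among all genes, the 12 called with knockdown on average became 0 with the random block or all transcript clusters. They became 1 with the replicate block over all arrays, 136 with the axis and 1002 with weights. With 1 array left out the counts ran from 2 to 5, from 1 to 3 and from 6 to 13 for these 3 RA comparisons, and from 0 to 0 for repair genes and partners with knockdown and for members with RA. For RA in shCT the counts of repair genes were 2 without replicate 2 of shCT without RA or any shCT array with RA. They were 3 without replicate 3 of shCT without RA, replicate 2 of shLOXL2 without RA or replicate 3 of shLOXL2 with RA. For RA in shLOXL2 they were 1 without replicate 2 or 3 of shLOXL2 with RA. The causes of these shifts were not tested. Without single arrays the calls of Recql5 (replicate 3 of shCT with RA, replicate 2 of either shLOXL2 group) and Rnf8 (replicate 2 of shCT without RA, replicate 1 or 3 of shCT with RA, replicate 2 of shLOXL2 with RA) ended, and those of Chaf1b and Parp1 ended without most arrays. The replicate block over all arrays called no partner in any comparison. No scanner files were used, so the background correction was not varied, and signals near the array medians may hold background, which shrinks log2 changes.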
